A study of Mus musculus with 6 samples.

Results

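Complement and coagulation genes were examined in left ventricular myocardium of mice with heart failure with preserved ejection fraction (HFpEF), a form of heart failure in which the ventricle still ejects a normal share of its blood. The set held 38 genes, listed by symbol with earlier results of these data known, out of 54532 gene identifiers in the deposited expression table. It comprised 11 complement components, 10 complement regulators and receptors, 10 coagulation genes and 7 fibrinolysis genes. All mice were male C57BL/6, aged 6 to 8 weeks at the start. The HFpEF group (n = 3) received a high-fat diet, with 60% of kcal from fat, together with L-NAME, which inhibits nitric oxide synthases, at 0.5 g/L in their water over 12 weeks. The Chow group (n = 3) received standard chow and regular water over the same time. Each library came from a different mouse. Diet and drug were given together, so their separate contributions cannot be told apart, and only males were studied. The comparison asks which transcripts differ in the HFpEF ventricle.

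Complement is a cascade of plasma proteins that tags particles and damaged cells for removal. The classical route starts when C1q, with its proteases C1r and C1s, cleaves C4 and C2, the alternative route runs through factors B and D and properdin, and all routes meet at C3. Coagulation starts when tissue factor meets factor VII and ends with thrombin and fibrin, while plasminogen activators later dissolve the fibrin. The liver makes most of these proteins for the plasma, but macrophages, fibroblasts, mesothelium and endothelium make some of them locally, and endothelium carries the anticoagulant receptors thrombomodulin and the endothelial protein C receptor.

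Levels are given in FPKM, reads per kilobase of a gene's exons divided by a scaling value of the library, which allows genes of different length to be set side by side. Reads recovered from the FPKM totalled 13076772 to 15574914 per Chow library and 13461735 to 16027084 per HFpEF library. The scaling values implied by the FPKM were below these totals in every Chow library and above them in every HFpEF library. The gap was largest in HFpEF replicate 3 (1.93e+07 against 1.52e+07 reads), so the scaling was not by this total alone. HFpEF replicate 3 stood apart from the rest. Along the first principal component of the tested genes (42.3% of variance) it scored 75.5, against 11.5 and 12.7 for the other HFpEF libraries and -35.8 to -31.7 for Chow. Mitochondrially encoded genes took 7.17% of its reads against 20.1% and 22.6% in the other HFpEF libraries and 24.0% to 26.0% in Chow. Ventricular cardiomyocyte markers were abundant in every library, with 8 genes summing to 15124 to 16644 FPKM in Chow and 7235 to 11367 FPKM in HFpEF, lowest in HFpEF replicate 3. Results that rest most on this library are given with and without it. In tissue RNA, a change in the number of cells of a type and a change in RNA per cell cannot be told apart.

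Promoter sequence was read for members whose window of 250 bases upstream of the transcription start held no annotated exon. Of the 38 members, 25 were in the RefSeq promoter table (GRCm38.p6), with 27 windows, of which 11 were free of exon. The 4 windows below are shown because they belong to the most abundant component, to a C1q chain and a C1 protease of the same C1 complex, and to the member with the lowest log2 fold change. Capitals mark matches, on either strand, to TTGCNNAA (a C/EBP-type motif, in 9.56% of 32851 RefSeq promoter windows of this length), to GAGGAA (an ETS-type motif, in 23.3%) or TTCNNNGAA (a STAT-type motif, in 7.02%). The windows lie at chr17:57228137-57228386 for C3, chr4:136886201-136886450 for C1qb, chr6:124542360-124542609 for C1s1 and chr16:30267533-30267782 for Cpn2, all on the minus strand and printed 5′ to 3′ in the direction of transcription.
C3: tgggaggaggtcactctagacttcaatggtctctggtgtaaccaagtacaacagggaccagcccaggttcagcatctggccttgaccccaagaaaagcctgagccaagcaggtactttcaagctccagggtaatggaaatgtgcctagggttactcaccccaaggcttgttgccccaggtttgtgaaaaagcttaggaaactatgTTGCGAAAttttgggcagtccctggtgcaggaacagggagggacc
C1qb: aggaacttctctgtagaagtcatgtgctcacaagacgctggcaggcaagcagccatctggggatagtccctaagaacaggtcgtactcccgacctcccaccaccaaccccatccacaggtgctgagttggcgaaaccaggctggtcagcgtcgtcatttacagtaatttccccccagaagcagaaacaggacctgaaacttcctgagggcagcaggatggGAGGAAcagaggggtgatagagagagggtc
C1s1: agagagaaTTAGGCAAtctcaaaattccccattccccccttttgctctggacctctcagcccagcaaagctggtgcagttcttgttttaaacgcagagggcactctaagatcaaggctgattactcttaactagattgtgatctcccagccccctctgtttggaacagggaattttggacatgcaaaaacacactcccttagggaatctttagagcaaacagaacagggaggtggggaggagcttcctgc
Cpn2: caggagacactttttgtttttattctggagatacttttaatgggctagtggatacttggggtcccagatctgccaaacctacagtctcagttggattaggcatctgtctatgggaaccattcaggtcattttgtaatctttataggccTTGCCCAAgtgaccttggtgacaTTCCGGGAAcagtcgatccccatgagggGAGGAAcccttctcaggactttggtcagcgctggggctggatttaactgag
The C3 and C1s1 windows each held 1 match to the C/EBP-type letters, and the C1qb window held 1 match to the ETS-type letters. The Cpn2 window held 1 match to each of the C/EBP, ETS and STAT letters, none overlapping another. These matches describe the letters only, and no binding was measured.

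Most measured members had more transcript in HFpEF hearts, but none passed an adjusted threshold. Of the 38 members, 30 passed the filter of at least 0.5 FPKM in at least 3 libraries and were tested in limma's fit of all 14225 genes, and 8 did not (Cfb, Cfi, F5, F8, F10, Proc, Serpinf2 and A2m). At a Benjamini-Hochberg adjusted p under 0.05 by limma, 0 of the 30 were called, where 0.0984% of all genes were called (0.0914% higher in HFpEF, 0.00703% lower). At an unadjusted p under 0.05, 17 of the 30 were higher in HFpEF and 2 were lower, against 10.2% and 13.1% of all genes and 23.3% in either direction. With voom on recovered reads, the count at an adjusted p under 0.05 was also 0. In that fit it was 0 over all 14220 genes, so nothing about the members is drawn from it. All 3 HFpEF libraries exceeded all 3 Chow libraries for 18 tested members (15.6% of all genes did so) and lay below them for 2 members, Vtn and Cpn2 (19.7% of all genes).

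The median log2 fold change (HFpEF minus Chow, on log2 of FPKM plus 0.1) was 0.79 over the 30 tested members and -0.01 over all genes tested, and it was positive for 25 of the 30 members. By class the median was 0.90 for components, 0.85 for regulators and receptors, 0.29 for coagulation and 0.96 for fibrinolysis. Taken library by library against the Chow mean, this median was 0.33, 0.70 and 1.21 for HFpEF replicates 1, 2 and 3. Of the 30 members, 18 had their highest HFpEF value in replicate 3, 7 in replicate 2 and 5 in replicate 1. Over all 14225 genes tested these counts were 5472, 4457 and 4296. Without HFpEF replicate 3 the median was 0.53 and 6 members passed an adjusted p of 0.05 by limma, all higher in HFpEF (C4b, Serping1, Cd55, Clu, F2r and Serpine2). In that fit 8.22% of all genes passed (2.85% higher in HFpEF), so the call of these 6 members depends on that library.

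**Figure D1:**
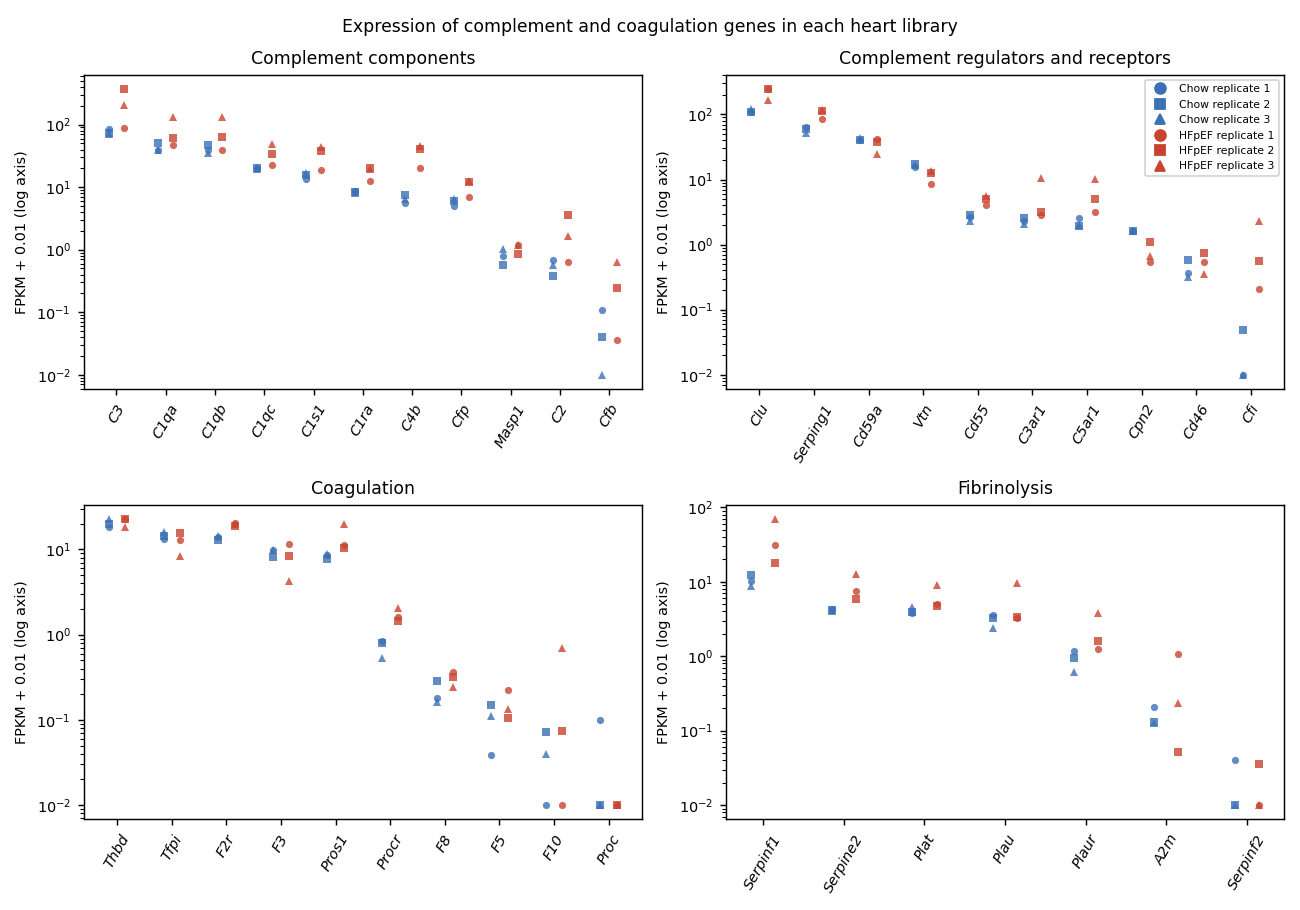
Expression of the 38 complement and coagulation genes, with FPKM plus 0.01 on a log axis and 1 point per library (blue Chow, red HFpEF, shape for the replicate number), ordered within each class by level. C3 and Clu were the most abundant members, with C3 at 70.6 to 84.7 FPKM in Chow and 87.3 to 374 FPKM in HFpEF, while the genes at the right of each panel had few reads.

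Among the components, both C1 proteases of the classical route were higher in all HFpEF libraries. C1ra encodes the mouse C1r protease and C1s1 the mouse C1s protease, and they lie near each other on chromosome 6 (GRCm38 chr6:124512405-124523443 and chr6:124530345-124542359). C1ra measured 8.74, 8.43 and 8.10 FPKM in Chow and 12.4, 20.6 and 19.4 FPKM in HFpEF. Its log2 fold change was 1.01 (SE 0.20, limma adjusted p = 0.0988), and the groups did not overlap. C1s1 measured 13.7, 15.6 and 17.0 FPKM in Chow and 18.7, 37.6 and 44.4 FPKM in HFpEF, again without overlap, with a log2 fold change of 1.03 (SE 0.32, limma adjusted p = 0.148). For both proteases HFpEF replicate 1 was the lowest of the HFpEF libraries. Ratios of 2 genes within a library were taken on FPKM plus 0.1. The ratio of C1s1 to C1ra was 1.56, 1.84 and 2.09 in Chow and 1.51, 1.82 and 2.28 in HFpEF, so the ranges of the groups overlapped almost fully. Their near-identical copies C1rb and C1s2 were at or under 0.0665 FPKM in every library. An antisense gene, Gm16567, covers 18.4% of the C1s1 exon bases and was listed at 0 in every library, and whether counting used strand is not given in the sources used here.

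C4b, the mouse C4 that C1s cleaves, had the largest fitted log2 fold change of the members. It lies at chr17:34728380-34743882. It measured 5.55, 7.38 and 6.52 FPKM in Chow and 20.5, 41.0 and 45.3 FPKM in HFpEF, a mean of 6.48 ± 0.915 (SD, n = 3) against 35.6 ± 13.3 (SD, n = 3) and a 5.49-fold ratio of means. The lowest HFpEF library was well above the highest Chow library. Its log2 fold change was 2.37 (SE 0.31, limma adjusted p = 0.0619). It was 2.15 without HFpEF replicate 3 (limma adjusted p = 0.0250) and 2.72 without HFpEF replicate 1 (limma adjusted p = 0.0253), and adjusted p ranged from 0.0250 to 0.279 over all alternatives. The paralog C4a, whose reads could be mixed with those of C4b, was at or under 0.152 FPKM in every library. C4b took 2.54% to 3.21% of the summed component FPKM in Chow libraries and 6.33% to 7.95% in HFpEF libraries.

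The 3 genes for the chains of C1q, the recognition part of C1, stand side by side on chromosome 4 (C1qb at chr4:136880129-136886187, C1qc at chr4:136889804-136893065, C1qa at chr4:136895917-136898803). C1qa measured 39.7, 50.4 and 39.0 FPKM in Chow and 47.3, 61.5 and 133 FPKM in HFpEF. C1qb measured 39.7, 47.0 and 35.4 FPKM in Chow and 39.7, 63.9 and 134 FPKM in HFpEF. HFpEF replicate 3 was far above the rest and HFpEF replicate 1 lay within the Chow range, so the groups overlapped for both genes. C1qc, at 19.97, 20.4 and 19.4 FPKM in Chow and 22.8, 33.3 and 49.0 FPKM in HFpEF, did not overlap. Log2 fold changes were 0.77 for C1qa, 0.78 for C1qb and 0.74 for C1qc, with limma adjusted p of 0.267, 0.301 and 0.175, and without HFpEF replicate 3 they were 0.34, 0.32 and 0.47. Within a library the C1qb to C1qa ratio was between 0.840 and 1.04 in all 6 libraries.

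C1q is made mainly by macrophages, and the macrophage markers moved with it. The 11 macrophage markers summed to 165 to 216 FPKM in Chow and to 210, 269.5 and 705 FPKM in HFpEF replicates 1, 2 and 3. Most of each sum was Lyz2, at 147, 141 and 110 FPKM in Chow and 139, 179 and 534 FPKM in HFpEF. None of the 11 was at 0 in any library, and 3 of the 11 were higher in HFpEF at an unadjusted p under 0.05 (10.2% of all genes were). Csf1r, the receptor that defines macrophages, measured 16.4, 15.2 and 13.5 FPKM in Chow and 17.9, 23.2 and 37.97 FPKM in HFpEF. The ratio of C1qa to Csf1r was 2.42, 3.31 and 2.87 in Chow and 2.63, 2.64 and 3.51 in HFpEF, a log2 difference of 0.03 that was far within the spread of either group. The part of macrophage number in the C1q values was not tested.

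C3, the component at which all routes meet, was the most abundant component and varied most between HFpEF mice in absolute level. It lies at chr17:57203970-57228136. It measured 84.7, 73.4 and 70.6 FPKM in Chow and 87.3, 374 and 204 FPKM in HFpEF. The first HFpEF library was barely above Chow, and the second was the highest of all. Its log2 fold change was 1.30 (SE 0.49, limma adjusted p = 0.188), and 1.25 without HFpEF replicate 3. C3 took 32.0% to 38.7% of the summed component FPKM in Chow and 31.6% to 57.7% in HFpEF.

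C2, the protease that joins C4 to form the C3 convertase, followed the order of C3 over the HFpEF libraries but not over the Chow libraries. It measured 0.671, 0.374 and 0.555 FPKM in Chow and 0.634, 3.597 and 1.63 FPKM in HFpEF, with a log2 fold change of 1.43 (SE 0.58, limma adjusted p = 0.208). HFpEF replicate 1 lay within the Chow range. The mesothelium and epicardium markers were also highest in HFpEF replicate 2, all 6 of them, with sums of 18.7 to 29.3 FPKM in Chow and of 36.4, 131 and 58.6 FPKM in HFpEF replicates 1, 2 and 3. Msln, which marks mesothelium, measured 8.504, 7.30 and 8.96 FPKM in Chow and 10.2, 56.0 and 25.6 FPKM in HFpEF, while Upk3b and Lrrn4 were lower in HFpEF replicate 3 than in replicate 1. None of these 6 markers was at 0 in any library, and their part in the C3 and C2 values was not tested. The C2 level itself is uncertain, because 42.8% of its exon bases are shared on the same strand with the read-through gene Gm20547, which was listed at 0 in every library.

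The alternative and lectin routes had 3 members, of which only Cfp separated the groups. Cfp encodes properdin, which stabilises the alternative convertase. It measured 5.02, 5.89 and 6.43 FPKM in Chow and 6.91, 11.9 and 12.4 FPKM in HFpEF without overlap, with a log2 fold change of 0.80 (SE 0.24, limma adjusted p = 0.145). Cfb, the factor B protease, was below the filter, with 5 recovered reads over the 3 Chow libraries and 46 over the 3 HFpEF libraries. Of these 46 reads, 34 were in HFpEF replicate 3, and 79.5% of the Cfb exon bases are shared with Gm20547, so its level is uncertain. The pooled ratio of Cfb was 6.99 (exact 95% interval 2.79 to 22.5, covering counting error only). Masp1, a protease of the lectin route, measured 0.793, 0.563 and 1.02 FPKM in Chow and 1.18, 0.858 and 1.17 FPKM in HFpEF, and its groups overlapped (log2 fold change 0.41, SE 0.28).

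**Figure D2:**
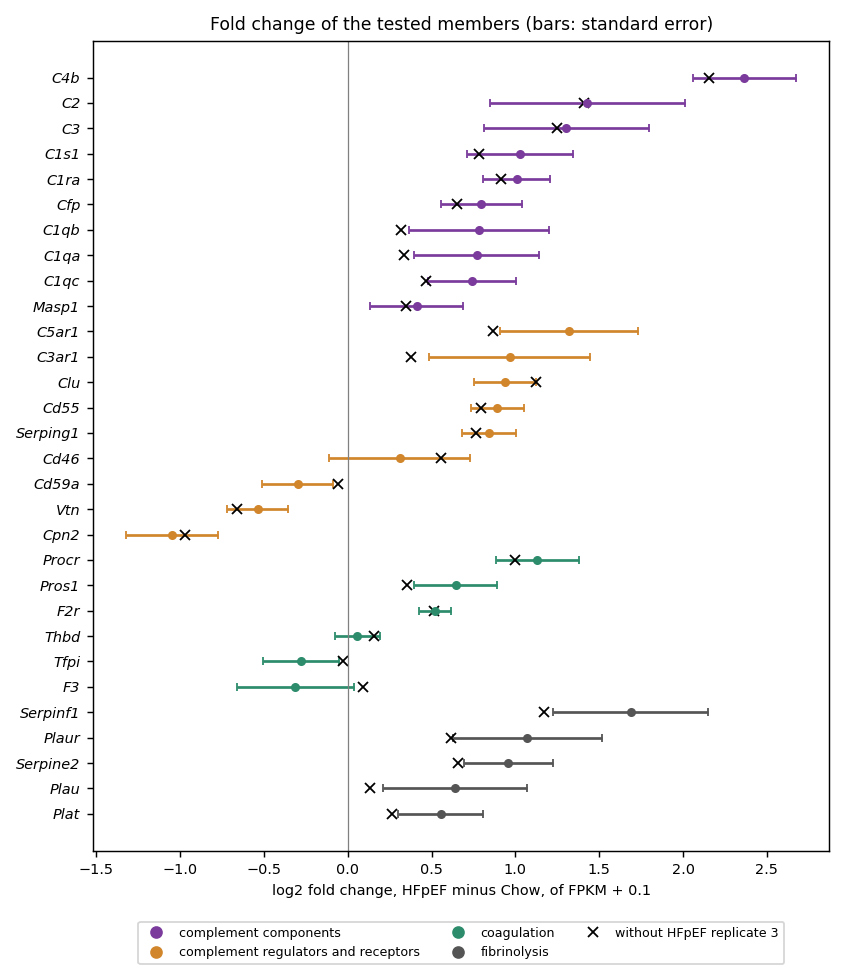
Log2 fold change (HFpEF minus Chow, of FPKM plus 0.1) of the 30 tested members, with points and bars for the limma estimate and its standard error, colours for the class and crosses for the value without HFpEF replicate 3. C4b lay at 2.37 and Cpn2 at -1.05 at the ends of the range, and the crosses of C3ar1, C1qa, C1qb and Plau lay closer to 0 than their points.

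Of the 10 regulators and receptors 9 were tested, and at an unadjusted p under 0.05 there were 4 higher in HFpEF and 2 lower (10.2% and 13.1% of all genes). Serping1 encodes the C1 inhibitor, which also blocks kallikrein and factor XII. It measured 63.8, 59.2 and 52.4 FPKM in Chow and 86.5, 114 and 118 FPKM in HFpEF, a mean of 58.5 ± 5.71 (SD, n = 3) against 106 ± 16.9 (SD, n = 3). The groups were well separated, and the log2 fold change was 0.85 (SE 0.16, limma adjusted p = 0.0987, and 0.0329 without HFpEF replicate 3). Relative to one of its targets the ratio did not separate the groups, with C1s1 to Serping1 at 0.216, 0.264 and 0.326 in Chow and 0.217, 0.331 and 0.379 in HFpEF.

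Cd55 encodes decay accelerating factor, a membrane protein that breaks up C3 convertases on the cell's own surface. It measured 2.68, 2.81 and 2.27 FPKM in Chow and 4.11, 5.04 and 5.57 FPKM in HFpEF. Its log2 fold change was 0.89 (SE 0.16, limma adjusted p = 0.0957, and 0.0346 without HFpEF replicate 3), with all HFpEF libraries above Chow. The other 2 membrane regulators did not separate the groups. Cd46, a cofactor for cleavage of C3b with little expression outside the testis in mice, was at 0.305 to 0.560 FPKM in Chow and 0.340 to 0.745 FPKM in HFpEF. Cd59a, which blocks the membrane attack complex, measured 40.0, 41.1 and 44.0 FPKM in Chow and 42.3, 37.7 and 24.4 FPKM in HFpEF, with a log2 fold change of -0.30 (SE 0.21, limma adjusted p = 0.410) that was -0.06 without HFpEF replicate 3. The Cd55 to Cd46 ratio, of FPKM plus 0.1, was 6.03, 4.41 and 5.85 in Chow and 6.66, 6.08 and 12.9 in HFpEF. This ratio was just without overlap, but without the added 0.1 the groups overlapped, so no separation is drawn from it. Of the Cd46 exon bases, 14.2% lie opposite another transcribed gene, A330023F24Rik.

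Clusterin and vitronectin both bind the terminal complex in fluid and block its insertion into membranes, and clusterin was higher and vitronectin lower in all HFpEF libraries. Clu (chr14:65968483-65981547) measured 108, 108 and 122 FPKM in Chow and 243, 248 and 168 FPKM in HFpEF, a mean of 113 ± 8.04 (SD, n = 3) against 220 ± 44.6 (SD, n = 3). Unlike most members it was lowest in HFpEF replicate 3. Its log2 fold change was 0.94 (SE 0.18, limma adjusted p = 0.0987), and it was 1.12 without HFpEF replicate 3 (limma adjusted p = 0.00727). Vtn measured 15.8, 17.5 and 16.6 FPKM in Chow and 8.64, 12.7 and 13.6 FPKM in HFpEF, without overlap, and its log2 fold change was -0.54 (SE 0.18, limma adjusted p = 0.165). Within each library the Clu to Vtn ratio was 6.81, 6.18 and 7.32 in Chow and 27.8, 19.4 and 12.3 in HFpEF. Clu alone was 45.6% to 50.2% of the summed FPKM of regulators and receptors in Chow and 47.6% to 62.0% in HFpEF.

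Cpn2 encodes the regulatory subunit of carboxypeptidase N, the plasma enzyme that inactivates C3a and C5a. It measured 1.61, 1.63 and 1.62 FPKM in Chow and 0.540, 1.10 and 0.649 FPKM in HFpEF. All HFpEF libraries were below the narrow Chow range, and the log2 fold change was -1.05 (SE 0.27, limma adjusted p = 0.119). Cfi, the protease that cleaves C3b with the help of cofactors, was below the filter, with 0, 1 and 0 recovered reads in Chow and 6, 21 and 97 in HFpEF. The HFpEF libraries were all above Chow, and 97 of the 124 HFpEF reads came from replicate 3. The pooled ratio was 94.2 with an exact 95% counting interval from 16.6 to 3751.

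The receptors for the complement fragments C3a and C5a, found mainly on myeloid cells, were highest in HFpEF replicate 3. C3ar1 measured 2.28, 2.59 and 2.04 FPKM in Chow and 2.89, 3.14 and 10.5 FPKM in HFpEF. C5ar1 measured 2.60, 1.92 and 1.96 FPKM in Chow and 3.12, 5.10 and 10.3 FPKM in HFpEF. Neither gene overlapped between groups, yet much of each fold change came from the last library. Log2 fold changes were 0.97 for C3ar1 (SE 0.48, limma adjusted p = 0.272) and 1.32 for C5ar1 (SE 0.41, limma adjusted p = 0.150), and 0.38 and 0.87 without HFpEF replicate 3. Of the 11 macrophage markers, 10 were highest in the same library, and Cd163 was highest in HFpEF replicate 2.

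**Figure D3:**
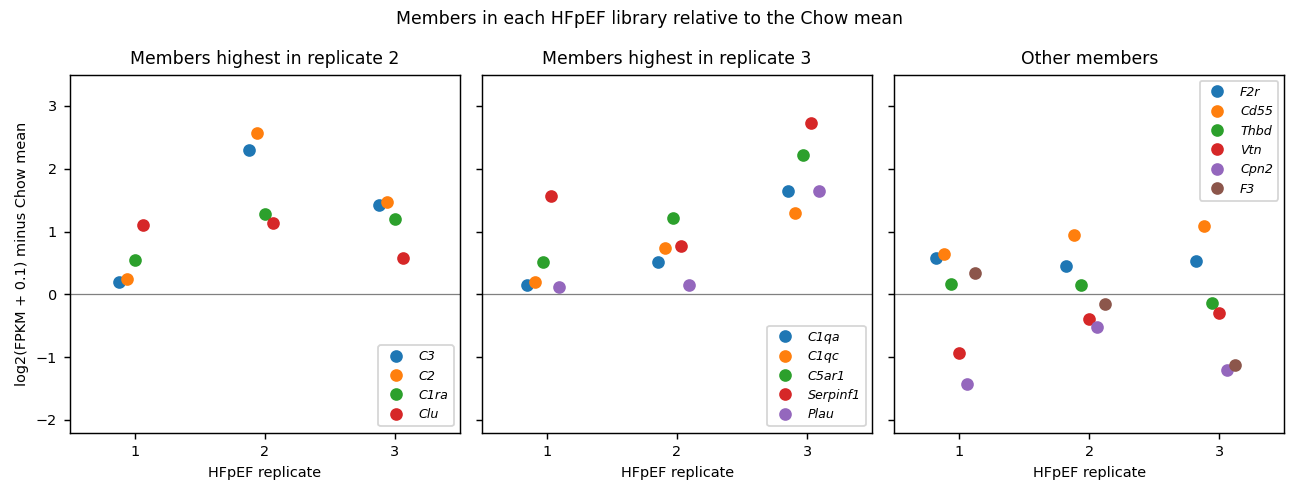
Log2(FPKM plus 0.1) minus the Chow mean in each HFpEF library for 15 members, which were sorted into panels after their values were seen. C3 and C2 peaked in HFpEF replicate 2 (2.30 and 2.57), Serpinf1, C5ar1 and the C1q chains in replicate 3, while F2r lay between 0.45 and 0.58 in all 3 libraries.

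In the coagulation class, the thrombin and protein C receptor genes were higher in all HFpEF libraries, while the initiating genes overlapped between groups. F2r encodes the main thrombin receptor of fibroblasts and endothelium. It measured 13.9, 12.98 and 14.5 FPKM in Chow and 20.6, 18.8 and 20.03 FPKM in HFpEF, a mean of 13.8 ± 0.764 (SD, n = 3) against 19.8 ± 0.920 (SD, n = 3). The log2 fold change of 0.52 was small, but its SE of 0.09 was the smallest of the members (limma adjusted p = 0.0963, and 0.0245 without HFpEF replicate 3). Procr, the endothelial protein C receptor, measured 0.830, 0.797 and 0.529 FPKM in Chow and 1.60, 1.42 and 2.04 FPKM in HFpEF. Its log2 fold change was 1.13 (SE 0.25, limma adjusted p = 0.107), with no overlap and a value of 1.00 without HFpEF replicate 3. Pros1, the protein S cofactor of activated protein C, measured 8.52, 7.73 and 8.84 FPKM in Chow and 11.1, 10.3 and 19.7 FPKM in HFpEF, and its log2 fold change of 0.64 was 0.35 without HFpEF replicate 3.

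Thbd, F3 and Tfpi did not separate the groups. Thbd encodes thrombomodulin, which turns thrombin toward protein C activation. It measured 18.4, 19.8 and 22.7 FPKM in Chow and 22.6, 22.5 and 18.3 FPKM in HFpEF (log2 fold change 0.06, SE 0.13). F3, tissue factor, measured 9.73, 8.23 and 9.82 FPKM in Chow and 11.7, 8.29 and 4.20 FPKM in HFpEF, with a log2 fold change of -0.31 (SE 0.35) that was 0.09 without HFpEF replicate 3. Tfpi, the inhibitor of tissue factor, measured 13.2, 14.3 and 16.1 FPKM in Chow and 13.03, 15.5 and 8.47 FPKM in HFpEF, with a log2 fold change of -0.28 (SE 0.23) that was -0.03 without HFpEF replicate 3. For all 3 genes the lowest value of the 6 libraries was in HFpEF replicate 3. These genes are expressed in endothelium or myocardium, where the 9 endothelial markers summed to 252 to 279 FPKM in Chow and 208 to 216 FPKM in HFpEF. Of the 9, 4 were lower in HFpEF at an unadjusted p under 0.05 (Cdh5, Kdr, Flt1 and Tie1), where 13.1% of all genes were. Pecam1 measured 32.4 to 36.4 FPKM in Chow and 32.1 to 33.7 FPKM in HFpEF. None of the 9 markers was at 0 in any library, and their part in these values was not tested.

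The other 4 members of the class, F5, F8, F10 and Proc, were below the filter. F5 had 24 recovered reads over the Chow libraries and 52 over the HFpEF libraries, and F8, a factor that endothelium makes, had 74 and 145. The pooled ratio was 1.65 for F5 (exact 95% interval 0.997 to 2.79) and 1.49 for F8 (1.12 to 2.00), and the libraries of the groups overlapped for both. F10 had 3 reads in Chow and 39 in HFpEF, of which 36 were in HFpEF replicate 3. Proc, protein C itself, had 3 reads in all, from 1 Chow library, so no fold is given.

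Within-library ratios of FPKM plus 0.1, which depend little on scaling between libraries, placed the receptors of this class against each other. Because Procr was low, the added 0.1 made the ratio of Thbd to Procr smaller than that of the plain FPKM. Thbd to Procr was 19.9, 22.2 and 36.2 in Chow and 13.4, 14.9 and 8.60 in HFpEF. Thbd to F2r was 1.33, 1.52 and 1.56 in Chow and 1.10, 1.20 and 0.914 in HFpEF. Both ratios were lower in all HFpEF libraries, by log2 differences of -1.07 and -0.46. F3 to Tfpi overlapped, at 0.577 to 0.739 in Chow and 0.502 to 0.900 in HFpEF. Of the 14 pairs compared, 13 of 2 members and 1 of C1qa with Csf1r, 6 did not overlap between groups on FPKM plus 0.1. Each of the 6 had a two-sided exact permutation p of 0.1, the smallest that 3 against 3 allows, and 0.233 after Benjamini-Hochberg adjustment over the 14 pairs. Among these 6, Cd55 to Cd46 overlapped once the added 0.1 was left out. The share of other gene pairs without overlap was not computed, so the count of 6 has no background of its own. For single genes tested, 15.6% were higher and 19.7% lower without overlap.

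**Figure D4:**
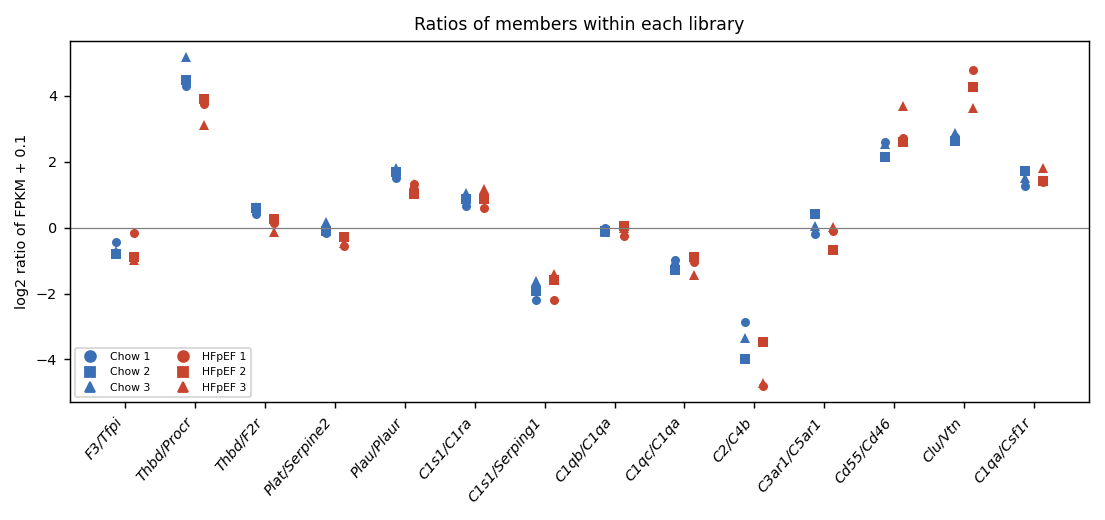
Log2 ratio of FPKM plus 0.1 for 14 pairs of genes within each library (blue Chow, red HFpEF, shape for the replicate number). Clu to Vtn and Cd55 to Cd46 were higher in all HFpEF libraries and Thbd to Procr, Thbd to F2r, Plat to Serpine2 and Plau to Plaur were lower, while the other 8 pairs overlapped. Without the added 0.1, Cd55 to Cd46 overlapped as well.

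In the fibrinolysis class, all 5 tested genes had a positive log2 fold change and were highest in HFpEF replicate 3. Of the 5, 3 were higher at an unadjusted p under 0.05, Serpine2, Serpinf1 and Plaur (10.2% of all genes were). Serpine2 encodes protease nexin, a cell-bound inhibitor of thrombin and plasminogen activators. It measured 4.33, 4.11 and 4.10 FPKM in Chow and 7.53, 5.88 and 12.6 FPKM in HFpEF, without overlap. The log2 fold change was 0.96 (SE 0.27, limma adjusted p = 0.127), and 0.66 without HFpEF replicate 3 (limma adjusted p = 0.0365). Plat, tissue plasminogen activator, measured 3.83, 3.86 and 4.60 FPKM in Chow and 5.09, 4.78 and 9.07 FPKM in HFpEF, with a log2 fold change of 0.55 (SE 0.25, and 0.27 without HFpEF replicate 3). Its ratio to Serpine2 was 0.886, 0.941 and 1.12 in Chow and 0.680, 0.816 and 0.723 in HFpEF, lower in every HFpEF library.

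Plau, urokinase, measured 3.53, 3.28 and 2.38 FPKM in Chow and 3.29, 3.34 and 9.71 FPKM in HFpEF, so 1 library set its log2 fold change of 0.64 (0.13 without HFpEF replicate 3). Its receptor Plaur measured 1.18, 0.944 and 0.600 FPKM in Chow and 1.24, 1.58 and 3.78 FPKM in HFpEF. Plaur was higher in every HFpEF library, narrowly in replicate 1, with a log2 fold change of 1.07 (SE 0.44, limma adjusted p = 0.211, and 0.62 without HFpEF replicate 3). The ratio of Plau to Plaur was 2.83, 3.23 and 3.53 in Chow and 2.53, 2.05 and 2.53 in HFpEF.

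Serpinf1 had the second largest fitted log2 fold change of the members. It encodes pigment epithelium-derived factor, a secreted serpin that inhibits no protease, unlike its neighbour Serpinf2, the plasmin inhibitor. Serpinf1 measured 10.3, 12.4 and 8.90 FPKM in Chow and 31.2, 17.9 and 69.5 FPKM in HFpEF, without overlap. On the log2 scale the fold change was 1.69 (SE 0.46, limma adjusted p = 0.126), and 1.17 without HFpEF replicate 3. Serpinf2 had 1 read in each group. A2m, a broad protease inhibitor, was below the filter with 20, 10 and 10 reads in Chow and 102, 5 and 31 in HFpEF, overlapping between groups.

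Of the 9 fibroblast markers, 8 were highest in HFpEF replicate 3, the library with the highest Serpinf1, Serpine2, Plat, Plau and Plaur. The 9 markers summed to 724 to 912 FPKM in Chow and to 1336, 1401 and 5879 FPKM in HFpEF replicates 1, 2 and 3. None was at 0 in any library, and 5 of the 9 were higher in HFpEF at an unadjusted p under 0.05 (10.2% of all genes were). Col1a1, the first collagen of the list, measured 27.2, 25.6 and 24.9 FPKM in Chow and 54.0, 87.2 and 2252 FPKM in HFpEF. Pdgfra, a surface marker of fibroblasts, measured 8.16, 7.97 and 6.28 FPKM in Chow and 11.3, 11.6 and 12.99 FPKM in HFpEF, so the excess in HFpEF replicate 3 was much larger for Col1a1 than for Pdgfra. Gsn, the most abundant of the 9 in Chow, measured 599, 512 and 461 FPKM in Chow and 816, 831 and 495 FPKM in HFpEF, lowest of the HFpEF libraries in replicate 3. Col1a1 and Col3a1 (1810 FPKM) made up most of the sum in that library. The part of fibroblast number in these results was not tested.

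**Figure D5:**
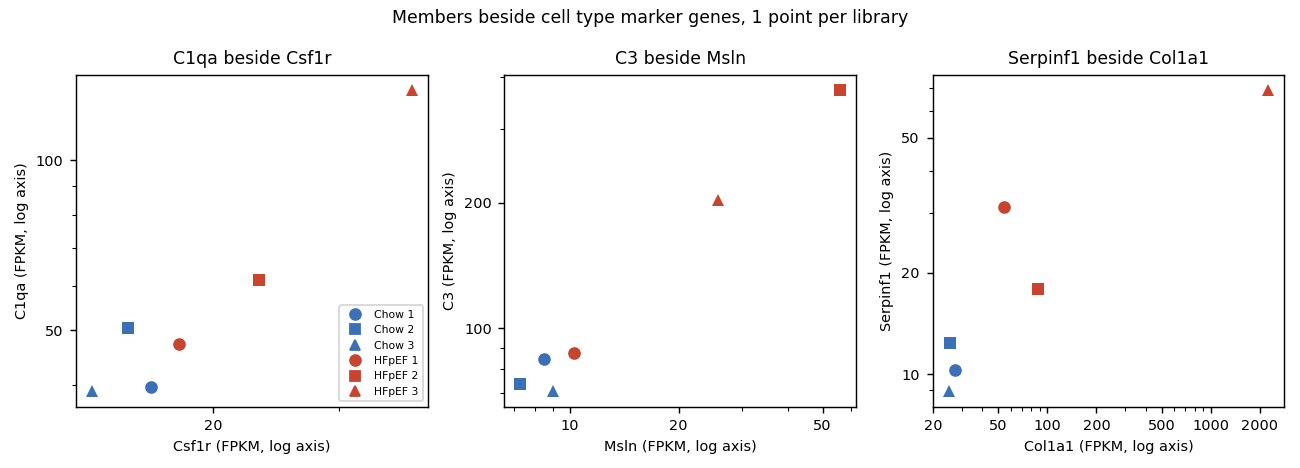
FPKM of C1qa, C3 and Serpinf1 against FPKM of the cell type markers Csf1r (macrophages), Msln (mesothelium) and Col1a1 (fibroblasts), with log axes, 1 point per library and the 3 pairs chosen after the values were seen. HFpEF replicate 3 was at the top right for C1qa and Serpinf1 (133 and 69.5 FPKM), and HFpEF replicate 2 was at the top right for C3 (374 FPKM).

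Markers of other cells that hold or carry these proteins are given as sums, some of which rested mostly on 1 gene. The 7 liver markers found summed to 0.663 to 3.64 FPKM in Chow and 3.75 to 6.68 FPKM in HFpEF, with Alb and Fgb at 0 in every library. Most of this was Ahsg, at 1.05, 0.504 and 1.92 FPKM in Chow and 5.85, 4.46 and 3.09 FPKM in HFpEF. No other marker of that list separated the groups. Neutrophil markers summed to 0.858 to 4.10 FPKM in Chow and 1.35 to 4.23 FPKM in HFpEF, with Ly6g at 0 in every library. Platelet and megakaryocyte markers summed to 20.1 to 26.8 FPKM in Chow and 25.4 to 34.8 FPKM in HFpEF. Most of this was Pf4, at 18.4, 19.1 and 15.6 FPKM in Chow and 21.8, 20.8 and 31.9 FPKM in HFpEF. Pf4 was higher in every HFpEF library, while the other markers of that list overlapped between groups. Smooth muscle and pericyte markers summed to 318 to 358 FPKM in Chow and to 705, 233 and 530 FPKM in HFpEF replicates 1, 2 and 3. Acta2 measured 53.2, 73.1 and 77.9 FPKM in Chow and 422, 48.8 and 262 FPKM in HFpEF. Kcnj8 and Abcc9 were lower in every HFpEF library (ratios of means 0.706 and 0.571), while the other markers of that list overlapped. B cell markers summed to 0.903 to 3.66 FPKM in Chow and 1.41 to 6.75 FPKM in HFpEF, and T and NK cell markers to 0.905 to 2.51 FPKM in Chow and 1.99 to 4.63 FPKM in HFpEF.

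Most of the tested complement genes outside the set also had a positive log2 fold change. Of 34 listed, 16 were tested, 9 were higher in HFpEF and 1 was lower at an unadjusted p under 0.05 (10.2% and 13.1% of all genes), and their median log2 fold change was 0.93. Cfd and Itgam, both among the 9, passed the filter only through the HFpEF libraries, where they were higher, so nothing is drawn from their p values. The same holds for C5ar2 and Itgax, also among the 9, which reached 0.5 FPKM in only 1 Chow library. The count of 9 and the median include all of these genes. Colec12 and Cfd also passed an adjusted p of 0.05. Colec12, a scavenger receptor of the collectin family, rose from 6.13, 5.90 and 6.42 FPKM in Chow to 13.1, 13.4 and 13.6 FPKM in HFpEF (log2 fold change 1.10, SE 0.09, limma adjusted p = 0.0221). Cfd, factor D, was listed at 0 in every Chow library and measured 35.3, 37.8 and 22.9 FPKM in HFpEF. Factor D is made by adipocytes. Of the 8 adipocyte markers, 4 were at 0 in every Chow library (Adipoq, Cidec, Lep and Retn), Plin1 and Car3 were at or under 0.0297 FPKM there, and all 6 were above Chow in every HFpEF library. Adipoq measured 6.69, 6.24 and 1.91 FPKM in HFpEF and Car3 34.1, 28.2 and 7.82 FPKM. The 8 markers summed to 138 to 146 FPKM in Chow and to 177, 172 and 83.9 FPKM in HFpEF replicates 1, 2 and 3, sums that were mostly Pnpla2, a lipase also expressed in heart muscle. The part of adipocytes in the Cfd values was not tested.

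C7, a terminal component, measured 9.81, 9.59 and 9.33 FPKM in Chow and 11.4, 26.1 and 15.03 FPKM in HFpEF, again highest in HFpEF replicate 2. C5ar2, the second C5a receptor, measured 0.532, 0.431 and 0.325 FPKM in Chow and 1.07, 0.961 and 1.08 FPKM in HFpEF, close together across the HFpEF libraries where C5ar1 was spread. C1rl and Fcna were also higher at an unadjusted p under 0.05, with log2 fold changes of 0.78 and 0.91. Itgam and Itgax had log2 fold changes of 1.44 and 0.96, and nothing is drawn from their p values or that of C5ar2. C1qbp, a mitochondrial protein first found by its binding to C1q, was the 1 lower gene, at 30.8, 32.0 and 31.8 FPKM in Chow and 23.2, 23.9 and 14.7 FPKM in HFpEF (log2 fold change -0.65).

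Fewer of the other coagulation and fibrinolysis genes were measured. Of 26 other coagulation genes 6 were tested and 1 was higher at an unadjusted p under 0.05 (10.2% of all genes were), Ggcx, the carboxylase that matures vitamin K-dependent factors (log2 fold change 0.42, SE 0.11). F13a1, the factor XIII subunit that cross-links fibrin, measured 12.98, 12.5 and 9.44 FPKM in Chow and 12.4, 13.6 and 17.8 FPKM in HFpEF, and Vwf, the platelet-binding von Willebrand factor, 8.25 to 14.2 FPKM in Chow and 7.93 to 13.9 FPKM in HFpEF, both with overlapping groups. Of 9 other fibrinolysis genes 5 were tested and 2 were higher, Lrp1, which clears protease and inhibitor complexes (1.08, SE 0.25), and Anxa2, a surface docking protein for plasminogen and its activator (0.97, SE 0.32). The median of these 5 was 0.88, and 0.30 without HFpEF replicate 3. F2, F11, F12, Fga, Fgb, Fgg, Plg, Mbl1 and Mbl2, which the liver makes for plasma, were listed at 0 in every library.

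Summed over all 38 members, the level was 541 to 554 FPKM in Chow and 780, 1187 and 1177 FPKM in HFpEF replicates 1, 2 and 3. The components contributed 204 to 230 FPKM in Chow and 257, 648 and 645 FPKM in HFpEF. Regulators and receptors contributed 236 to 244 FPKM in Chow and 392, 428 and 354 FPKM in HFpEF, so HFpEF replicate 1 exceeded Chow mainly in regulators, through Clu and Serping1. Coagulation genes contributed 64.3 to 72.7 FPKM in Chow and 81.3, 77.3 and 73.8 FPKM in HFpEF, the smallest relative difference of the classes. Fibrinolysis genes contributed 20.7 to 24.7 FPKM in Chow and 49.4, 33.5 and 105 FPKM in HFpEF, of which Serpinf1 was 53.3% to 66.3%.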

How the data were processed

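RNA sequencing of 6 left ventricular libraries (3 Chow, 3 HFpEF) was analysed. Per the study's methods, the authors used HISAT2 for alignment and featureCounts for gene counting, and the deposited values are FPKM. The annotation, FPKM formula and strandedness are not given in the sources used here. Median-of-ratios factors of the deposited FPKM were 1.003 to 1.006, so the values were already close to level between libraries. The submitters' processing notes name GRCm38 (mm10). GENCODE M21 gave gene names and exon lengths. FPKM times exon length was a whole multiple of 1 step per library for 96.1% to 96.2% of values (relative tolerance 1e-06), and reads were recovered from it.

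Median-of-ratios scaling was applied to FPKM, 0.1 was added, and log2 values of genes that reached 0.5 FPKM in 3 or more libraries were fitted with limma 3.58.1 (R 4.3.3, eBayes with trend and robust options), with Benjamini-Hochberg adjustment over all 14225 genes. The authors tested counts with DESeq2, while limma was used here because the deposited values are FPKM. Fold changes on this scale understate those of low genes. Genes below the filter were described by recovered reads with exact 95% intervals, which cover counting error only, and no fold was given where both groups were at or under 3 reads per library. Within-library ratios were taken on FPKM plus 0.1 and compared by exact permutation tests. The fit was tested on simulated data. The members, pairs, pathway lists and marker lists were chosen with earlier results of these data known. Genes at 0, paralogs, F13a1, Vwf, Ahsg, Kcnj8 and Abcc9 were chosen after their values were seen. All members were named, with other pathway genes past an unadjusted p of 0.05 and markers. Results for some genes covered by this rule are not reported here. Alternatives were deposited FPKM without rescaling, quantile normalization, other pseudocounts (1 or 0.01), other filters (none or 1 FPKM), plain eBayes, a replicate block, voom on recovered reads and leaving out each library. Python 3.11.15, pandas 2.3.3 and scipy 1.17.1 were used. The Tf marker was not matched and is not used here.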

Additional observations from a re-analysis of the deposited data

How the results depend on the processing

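With 15 alternatives of the fit, no tested member passed an adjusted p of 0.05 by limma except Clu with quantile normalization (count of 1), C4b without HFpEF replicate 1 (count of 1) and 6 members without HFpEF replicate 3. The counts over all genes in these fits were 20 with quantile normalization, 3 without HFpEF replicate 1 and 1169 without HFpEF replicate 3. Leaving out 1 library gave 0 to 6 members at an adjusted p under 0.05, and 2 to 1169 over all genes. It gave 10 to 20 higher and 1 to 2 lower at an unadjusted p under 0.05, with 10 higher without Chow replicate 1, 11 without Chow replicate 2 and 11 without Chow replicate 3. Over all genes, 2110, 1949 and 2123 were past it in these 3 fits, 3320 with all libraries and 3483 to 3571 without an HFpEF library. It gave medians of 0.53 to 1.01 over all members, 0.25 to 0.34 for coagulation and 0.56 (without HFpEF replicate 3) to 0.90 for regulators and receptors. The median of coagulation genes was 0.41 with no filter, where more genes were tested, and 0.39 with quantile normalization, where the cause was not tested. Same-numbered Chow and HFpEF libraries did not deviate together (correlations of -0.04, -0.07 and -0.06), and the numbers share only a label. With the replicate block the counts were 16 higher and 2 lower at an unadjusted p under 0.05, 0 at an adjusted p, and a median of 0.79. Over all genes in that fit, 3005 were past the unadjusted threshold and 2 past the adjusted one.

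Differences near 0 changed sign when 1 library was left out. The log2 fold change of Thbd ran from -0.014 (without Chow replicate 1) to 0.16, and that of F3 from -0.64 to 0.094 (without HFpEF replicate 3). Over the libraries left out, the log2 ratio difference ranged from -0.30 to 0.12 for F3 to Tfpi, -0.13 to 0.16 for C1s1 to C1ra, -0.15 to 0.13 for C1qc to C1qa, -0.046 to 0.11 for C1qb to C1qa and -0.11 to 0.14 for C1qa to Csf1r. These overlapped between groups in all 6 libraries, and no direction is drawn from them. A level of 3 reads or fewer per library limits Proc and Serpinf2 in both groups, and Cfi and F10 in Chow.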
